A study of Mus musculus with 8 samples.

Results

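Socs1 (ENSMUSG00000038037), Socs2 (ENSMUSG00000020027), Socs3 (ENSMUSG00000053113) and Cish (ENSMUSG00000032578) encode suppressors of cytokine signalling. They were followed in cells of the mouse colonic lamina propria, the connective tissue under the gut epithelium. The 4 genes were taken by name from a list of 31017 gene symbols, with 1 row for each of the 4, and all 4 were found in every library. Single cells enriched for CD4 were sequenced from droplets in 8 libraries, 2 in each of 4 groups. The series' design describes the replicates of a condition as independent biological replicates. All mice were C57BL/6, 10 to 12 weeks old, kept specific pathogen free and fed a normal diet. The untreated wildtype and untreated mutant groups drank plain water for 10 days. In the other two groups, again 1 of each genotype, the water held 2% dextran sulfate sodium (DSS), a chemical that injures the colonic epithelium, for 7 days and was plain again for the last 3. Tissue from every group was collected on day 10. The mutant mice carry an amino acid substitution in RORgt, the transcription factor that specifies Th17 cells, written S203AKI in the sample titles and RORgtS182A in the series' title. Gene-level counts cannot show a substitution, and the genotype labels were not checked.

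Cytokines such as interleukin-2, interleukin-6 and interferon-gamma act through receptor-bound Janus kinases (JAKs), which phosphorylate STAT transcription factors. SOCS proteins and CIS, the product of Cish, are induced by STATs and in turn limit the same receptors: SOCS1 and SOCS3 can inhibit JAK activity, while CIS and SOCS2 occupy receptor docking sites, and all of them recruit an E3 ubiquitin ligase through their SOCS box. SOCS1 is best known as a brake on interferon-gamma and common gamma chain cytokines, SOCS3 on interleukin-6 family cytokines acting through gp130 and STAT3, CIS on STAT5-activating cytokines such as interleukin-2, and SOCS2 on growth hormone.

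The bases next to the transcription start are shown for Socs1, Socs3 and Cish, whose windows hold matches to the DNA motifs that STATs and interferon-regulated factors recognise; Socs2 was not searched. The sequences are from RefSeq (build GRCm38.p6) and are written 5′ to 3′ on the strand of the gene, with motif matches in capitals. The STAT-type motif was TTCNNNGAA and the interferon-response (ISRE-type) motif GAAANNGAAA, each searched on both strands. The first line holds the 250 bases before the start of Socs1 (chr16:10785537-10785786, minus strand), with 2 overlapping ISRE-type matches at bases 83 to 74 and 77 to 68 before the start. The second holds the 250 bases before the start of Socs3 (chr11:117969367-117969616, minus strand), with a STAT-type match at bases 154 to 146 before the start. The third holds a stretch of 30 bases from the start of Cish (chr9:107296659-107296688, plus strand), with STAT-type matches at bases 1 to 9 and 12 to 20 after the start; the 250 bases before the start of Cish held no match to either motif.
Socs1: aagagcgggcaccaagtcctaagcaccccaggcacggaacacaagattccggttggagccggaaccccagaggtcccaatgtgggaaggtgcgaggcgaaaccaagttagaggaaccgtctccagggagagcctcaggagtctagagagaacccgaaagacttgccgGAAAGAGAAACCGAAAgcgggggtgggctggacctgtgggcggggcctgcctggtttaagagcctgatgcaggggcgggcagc
Socs3: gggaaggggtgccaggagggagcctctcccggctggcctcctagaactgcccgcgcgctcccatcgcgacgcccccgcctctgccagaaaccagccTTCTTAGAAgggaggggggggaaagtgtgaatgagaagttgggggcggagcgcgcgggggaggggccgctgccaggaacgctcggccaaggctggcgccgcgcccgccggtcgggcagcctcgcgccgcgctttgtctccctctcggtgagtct
Cish: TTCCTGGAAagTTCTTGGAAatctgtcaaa
Of 32851 mouse promoters of 300 bases, 2726 (8.30%) held a STAT-type match and 1131 (3.44%) an ISRE-type match. A match is a run of letters and was not tested for binding here.

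The libraries held between 34497509 and 46960005 unique molecular identifiers (UMIs), each standing for 1 captured transcript. Cells on the authors' list that fell into T cell clusters are called CD4 T cells here, 1789 to 3765 per library and 20794 in all, and the T subsets are parts of them. Other populations came from all 96721 barcodes with at least 400 genes and under 20% mitochondrial UMIs. Clusters were named from marker genes, such as Foxp3 for regulatory T cell (Treg)-like and Il17a for Th17-like cells. The 4 genes were kept out of the genes used for clustering, as were listed JAKs, STATs, cytokines, their receptors and other regulators. The lists of STAT target genes and stress genes were not kept out, except for genes also among those kept out. The Tfh-like cluster was named from follicular helper markers, but Hbb-bs, a haemoglobin gene, was first among its leading genes. Unnamed T cell clusters included 1 with Foxp3 and Klrg1 among its leading genes. Another was led by Eomes, Ccl5 and Cd8a (2.24% to 10.7% of the CD4 T cells of a library). A further cluster was led by mast cell proteases and Hspa1a. It made up 16.8% and 8.72% of the CD4 T cells of the untreated mutant libraries and 1.45% to 4.01% of those of the others. Th17-like cells made up 32.7% of the CD4 T cells of DSS-treated mutant replicate 1 and 7.68% to 23.7% of those of the other libraries. Any 2 libraries shared between 19 and 59 barcodes. Levels are in CPM, a gene's UMIs scaled to 1000000 UMIs of the population in a library, given as mean ± SD over libraries with at least 20 cells of that population.

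The 4 genes had different orders of level across the 14 named populations. Socs1 was highest in naive T-like (164 ± 39.2 CPM, n = 8) and Tfh-like cells (149.7 ± 25.1), followed by group 3 innate lymphoid cell (ILC3)-like cells (108 ± 21.2), and lowest in plasma cell-like cells (10.2 ± 2.26). Socs2 was highest in Treg-like cells (136 ± 17.2 CPM, n = 8), then in endothelial-like (94.8 ± 5.1996) and Th17-like cells (76.1 ± 9.74). It was lowest in naive T-like cells, with 0 to 5 UMIs per library. Socs3 was highest in macrophage-like (571 ± 144 CPM, n = 8), endothelial-like (541 ± 83.2) and naive T-like cells (458 ± 147), and lowest in plasma cell-like cells (33.1 ± 16.2). Cish was highest in ILC3-like (435 ± 14.6 CPM, n = 8), Th17-like (407 ± 47.9) and Treg-like cells (289 ± 51.2), and lowest in plasma cell-like cells (16.8 ± 3.58). Socs4, another family gene, was also lowest in plasma cell-like cells (9.53 ± 1.03 CPM). There 5 plasma cell markers alone summed to 48068 to 54721 CPM. The part of such plentiful transcripts in the low CPM of other genes was not tested. Of the 6 macrophage-like clusters, 2 had no complement C1q gene among their 10 leading genes: 1 of 1297 barcodes led by Retnla, Clec4e and F10, and 1 of 1000 barcodes led by Ccl4, H2-M2 and Mmp13. A cluster with Retnla, Clec4e and F10 among its leading genes was named monocyte-like from another random start. Lymphoid populations thus held the top places for Socs1 and Cish, and macrophage-like and endothelial-like cells the top places for Socs3. Neighbours in each order were compared by exact two-sided sign-flip permutation tests on log2(CPM + 1) within libraries. None of the 52 neighbouring pairs differed after Benjamini-Hochberg adjustment; 14 had an unadjusted p under 0.05, and the smallest p that 8 libraries allow, 0.00781, became 0.0580 after adjustment. Pairs with neutrophil-like cells (4 libraries, all DSS-treated) or keratinocyte-like cells (5 libraries, 4 of them DSS-treated) could not reach a p below 0.125 or 0.0625.

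**Figure D1:**
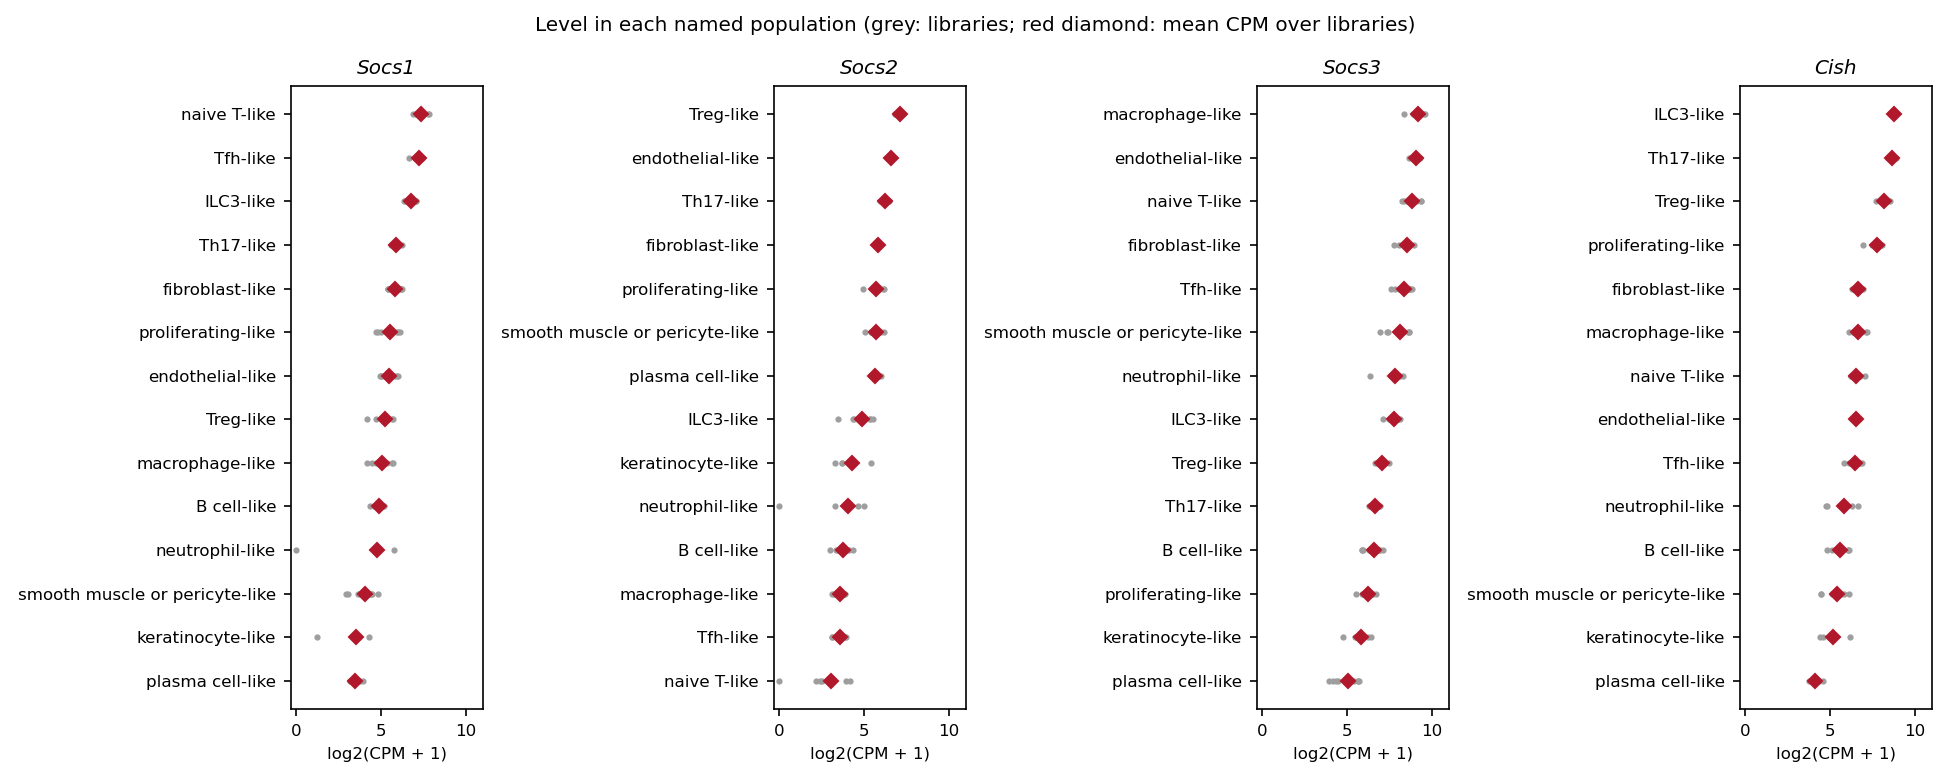
Level of each gene in the 14 named populations, as log2(CPM + 1) on the horizontal axis, with libraries as grey points and the mean CPM over libraries as red diamonds. Naive T-like and Tfh-like cells stand at the top for Socs1 and at the bottom for Socs2, macrophage-like cells at the top for Socs3, and ILC3-like and Th17-like cells at the top for Cish.

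Within the T cells, Socs2 and Cish were higher, and Socs1 and Socs3 lower, in Treg-like and Th17-like than in naive T-like and Tfh-like cells. All pairs of the Treg-like, Th17-like, Tfh-like and naive T-like cells were compared in the same way, a set of pairs chosen after the levels had been seen. These tests were not run over all genes, so the number of pairs that differ cannot be set against a share of all genes. Of 24 pairs, 22 differed after adjustment. Of these, 3 are also among the 52 neighbouring pairs and did not pass there, where more pairs are adjusted for: Cish in Th17-like over Treg-like and Socs3 in Treg-like over Th17-like cells (adjusted p = 0.0580 each) and Socs2 in Tfh-like over naive T-like cells (0.135). Socs2 was 12.5-fold higher in Treg-like than in Tfh-like cells and 1.79-fold higher than in Th17-like cells, in 8 of 8 libraries each. Cish was 4.55-fold higher in Th17-like than in Tfh-like cells and 1.41-fold higher than in Treg-like cells, again in 8 of 8. Socs1 and Socs3 ran the other way. Socs1 was 4.07-fold higher in Tfh-like than in Treg-like cells, and Socs3 was 4.65-fold higher in naive T-like than in Th17-like cells, in 8 of 8 libraries each (exact p = 0.00781, adjusted 0.00938, for each of these 6 differences). Between Treg-like and Th17-like cells, Socs1 was 1.61-fold higher in Th17-like than in Treg-like cells and Socs3 1.36-fold higher in Treg-like than in Th17-like cells, with the same exact p. The unnamed cluster with Foxp3 and Klrg1 did not share the Treg-like levels. It had Socs2 at 68.0 ± 13.6 CPM and Socs1 at 72.2 ± 16.4 CPM (SD, n = 8). Treg-like cells had 136 and 36.7 CPM, and Th17-like cells 76.1 and 59.3 CPM. The levels of this cluster were not compared by a test. The 2 pairs that did not pass were naive T-like against Tfh-like cells for Socs1 (mean log2 difference 0.12 ± 0.37, SD, exact p = 0.461) and for Cish (0.06 ± 0.49, exact p = 0.813).

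Across the 14 named populations, the mean levels of the genes varied together to different degrees. Pearson's r of log2(CPM + 1) was 0.63 for Socs1 with Cish, 0.56 for Socs1 with Socs3, 0.32 for Socs2 with Cish and 0.21 for Socs3 with Cish, and it was -0.25 for Socs2 with Socs1 and -0.23 for Socs2 with Socs3. The populations came from the same 8 libraries and differ in depth. The means of neutrophil-like cells rest on the 4 DSS-treated libraries alone. Those of keratinocyte-like cells rest on the same 4 and untreated mutant replicate 1. The part of treatment in these correlations was not tested. Among 9790 genes that reached 20 CPM in any named population, the pattern most like that of Socs1 belonged to Arid5a (r = 0.90), which encodes an RNA-binding protein, followed by Prdm2, Jak1, which encodes one of the kinases that SOCS1 inhibits, Ranbp10 and Kbtbd11 (r from 0.87 to 0.88). The genes most like Socs2 were Eif4e3 (r = 0.89), Trp53i13, Lamc1, Lgals1 and Creb3l2 (from 0.80). Those most like Socs3 were Stat2 (r = 0.91), P4ha1, Lipa, Rnf213 and Sbno2 (from 0.85). Those most like Cish were Tex2 (r = 0.96), Mex3c, Cenpl, Prkar1a and Id2, a transcriptional regulator needed for innate lymphoid cells (from 0.92).

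In single CD4 T cells the transcripts were sparse. After each cell was thinned to 1000 UMIs, a Socs1 UMI was found in 7.51% ± 1.26 of the cells (SD, n = 8), Socs2 in 5.67% ± 0.722, Socs3 in 17.0% ± 2.24 and Cish in 22.9% ± 2.80. Without thinning these shares were 18.1%, 13.8%, 34.8% and 44.7%. Thinning left out 591 shallower cells, and the median depth of the CD4 T cells was 2367 UMIs. As a measure of free RNA, C1qa, a macrophage gene, was found in 3.25% ± 2.20 of the thinned CD4 T cells, and Cd3e, a T cell gene, in 0.771% ± 0.557 of the thinned plasma cell-like cells (median depth 8213 UMIs). The Socs1 share in plasma cell-like cells, 0.874% ± 0.349, was within the spread of that background.

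The series compares DSS treatment with no treatment and mutant with wildtype mice. For DSS, UMI counts were summed per library and population and tested with edgeR's quasi-likelihood test over all 8 libraries, averaging the genotypes, so that 4 libraries stood against 4. P-values were adjusted over all genes tested in a population, and an adjusted p under 0.05 is called a change. In the summed CD4 T cells Socs1 fell, and no change was called for the other 3 genes. This is 1 of 4 genes, where 18.3% of all 11058 genes tested were called. A sum over all CD4 T cells does not tell fewer cells of a type from less RNA per cell.

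Socs1 was at 70.99 and 78.4 CPM in the untreated wildtype libraries and 96.1 and 100.1 CPM in the untreated mutant libraries. After DSS Socs1 was at 70.5 and 66.5 CPM in the wildtype and 67.5 and 54.2 CPM in the mutant libraries. The mutant libraries were the highest without treatment, and the highest treated library lay just below the lowest untreated one, both wildtype. Socs1 fell from 86.4 ± 14.0 to 64.7 ± 7.17 CPM (SD, n = 4 each), or by 0.49 ± 0.09 on the log2 scale (SE, edgeR adjusted p = 0.0109). Without untreated wildtype replicate 2 the log2 fold change was -0.44 (adjusted p = 0.0666), and the call held without any other single library. Within the mutant alone Socs1 fell by 0.78 on the log2 scale (edgeR adjusted p = 0.0212), where 5.04% of genes were called, but the call was lost without any of untreated mutant replicate 1 (log2 fold change -0.83, adjusted p = 0.110), untreated mutant replicate 2 (-0.72, 0.128) or DSS-treated mutant replicate 2 (-0.61, 0.0969), and in a fit of the 4 mutant libraries alone (adjusted p = 0.0627). Within the wildtype the log2 fold change of Socs1 was -0.19 (edgeR adjusted p = 0.472), where 0.317% of genes were called. It ran from -0.264 to -0.111 when 1 library was left out. The difference between the effects in the mutant and in the wildtype, -0.59 ± 0.19 (SE), had an unadjusted edgeR p of 0.00965 and an adjusted p of 0.99998.

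Socs3 was at 169.8 and 149 CPM in the untreated wildtype libraries, 174 and 174 in the untreated mutant, 192 and 219 in the DSS-treated wildtype and 187 and 179.8 in the DSS-treated mutant libraries. Every treated library was above every untreated library, but the distance was small and not called (log2 fold change 0.15 ± 0.08, SE, edgeR adjusted p = 0.229). Cish was at 278 and 259 CPM in the untreated wildtype, 261 and 280.2 in the untreated mutant, 289.6 and 259 in the DSS-treated wildtype and 349.5 and 211 in the DSS-treated mutant libraries. The 2 DSS-treated mutant libraries were thus the highest and the lowest of all for Cish, and its log2 fold change was -0.04 ± 0.14 (SE, edgeR adjusted p = 0.882). Socs2 stayed between 52.1 and 71.6 CPM in all 8 libraries, and its log2 fold change was 0.01 (edgeR adjusted p = 0.934).

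**Figure D2:**
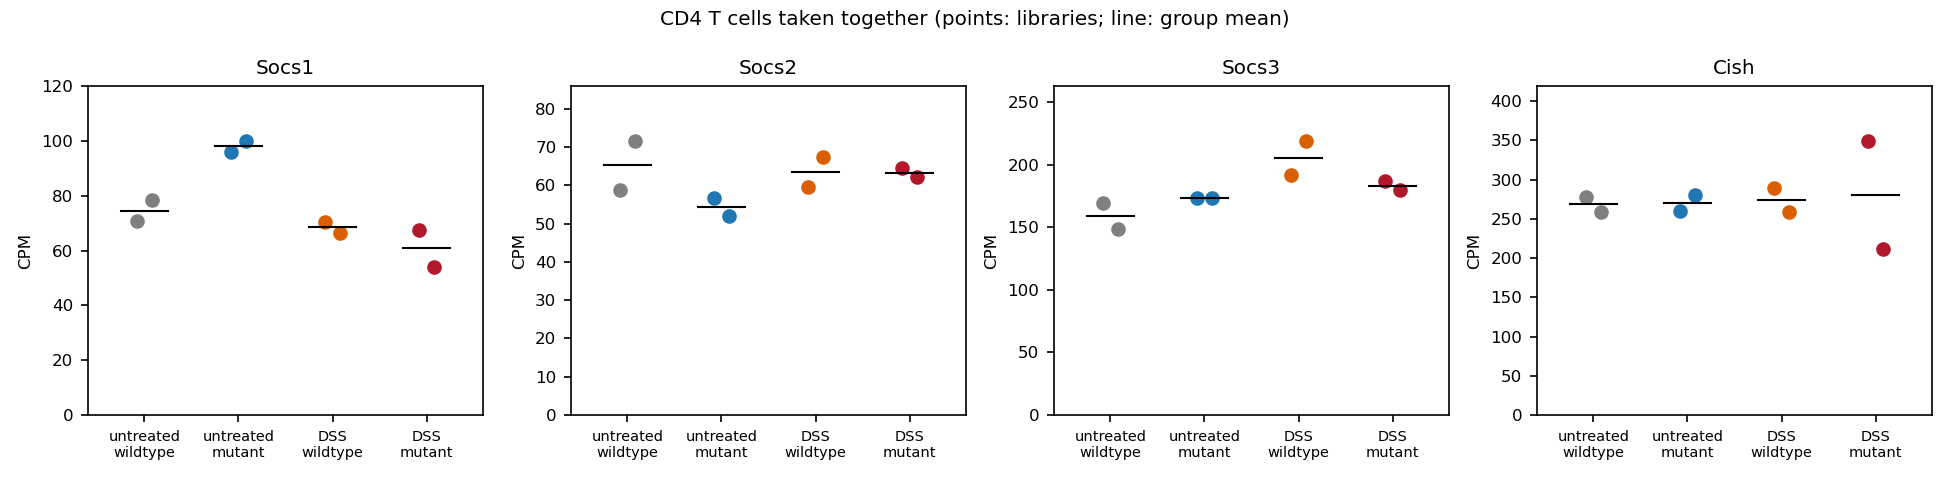
Level of each gene (CPM, vertical axis from 0) in the CD4 T cells of each library, with points for libraries and lines for group means. Socs1 is highest in the untreated mutant libraries (96.1 and 100.1 CPM) and lowest in a DSS-treated mutant library (54.2), and the 2 DSS-treated mutant libraries lie far apart for Cish (349.5 and 211).

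The makeup of the CD4 T cells differed between treated and untreated libraries. Treg-like cells, which had the lowest Socs1 level of the named T subsets, were 7.12% to 10.7% of the CD4 T cells without treatment and 14.3% to 18.9% after DSS. Cells of an unnamed cluster led by Ccl5 and Gzma, a granzyme gene, went from 16.8%-21.4% to 5.36%-10.5%, and those of the unnamed cluster with Foxp3 and Klrg1 from 4.53%-6.94% to 8.76%-13.2%. In the summed CD4 T cells the level of 7 Treg markers went from 1925-2301 to 2406-2563 CPM and that of 5 T cell markers from 2345-2628 to 1962-2242, with no overlap. The level of 5 columnar epithelium markers went from 11.991-22.9 to 10.6-11.990, so that the groups all but touched. The part of these markers in the Socs1 result was not tested. To give each subset the same weight in every library, CPM was averaged over 10 T subsets, a calculation added after the data had been seen. Weighted equally, Socs1 was at 83.7 ± 13.3 CPM without treatment and 79.4 ± 9.41 after DSS (SD, n = 4 each). The groups overlapped, with a mean log2 difference of -0.07 (exact two-sided permutation p = 0.686). Socs3 was at 172 ± 11.2 and 245 ± 20.7 CPM (n = 4 each). For Socs3 the groups did not overlap, with a mean log2 difference of 0.51 (exact two-sided permutation p = 0.0286, the smallest that 4 against 4 libraries allow). The mean log2 difference was -0.13 for Socs2 (exact p = 0.371) and 0.05 for Cish (exact p = 0.571). These permutation p-values are not adjusted and cannot be set against the adjusted p-values of the summed cells. With equal weights the difference of Socs1 was smaller, and that of Socs3 larger, than in the sum. Equal weights also let small clusters count as much as large ones. The cluster led by Eomes, Ccl5 and Cd8a had 63 to 186 cells per treated library. Its Socs3 level ranged from 198 to 466 CPM after DSS. The cluster led by mast cell proteases had 46 to 68 cells per treated and 31 to 300 per untreated library. The Socs3 level of that cluster ranged from 64.4 to 411 CPM over the 8 libraries. The part of these small clusters in the Socs3 difference was not tested.

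**Figure D3:**
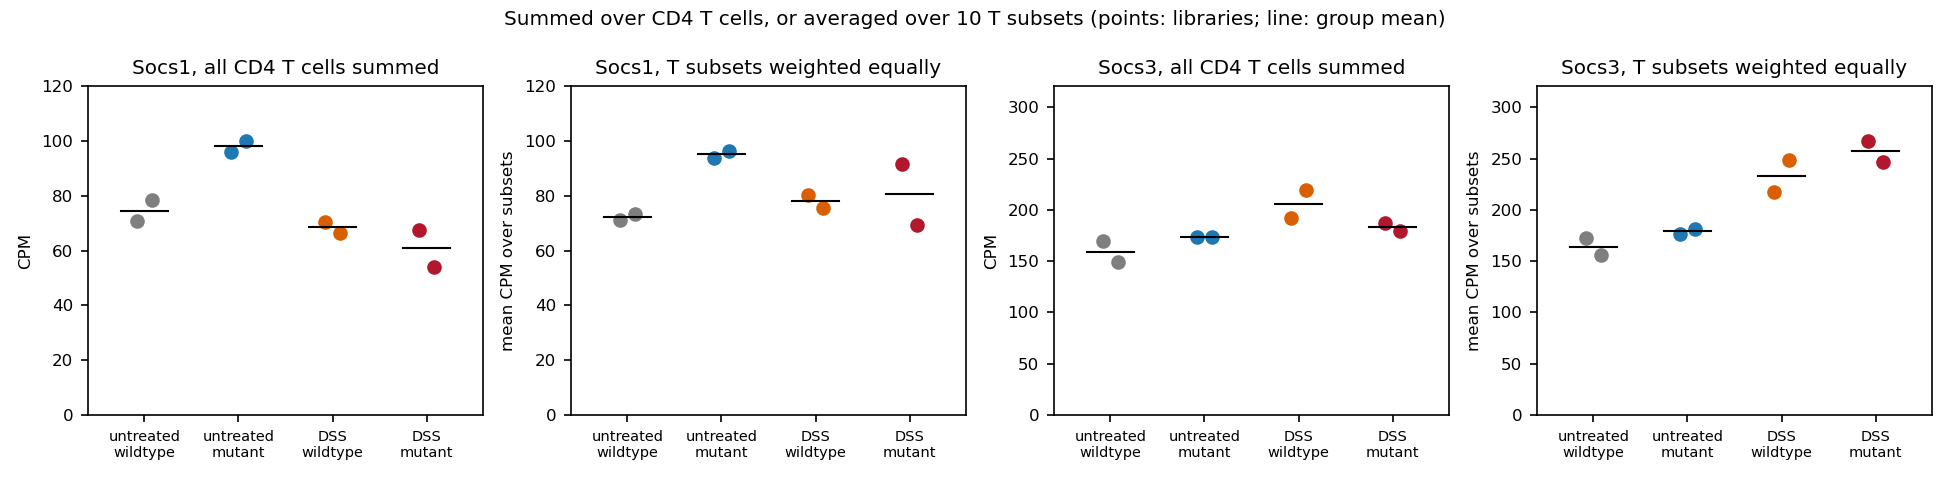
Socs1 and Socs3 in each library (CPM, vertical axes from 0), summed over all CD4 T cells or averaged over 10 T subsets of equal weight, with points for libraries and lines for group means. For Socs1 the fall seen in the sum (86.4 to 64.7 CPM) is smaller with equal weights (83.7 to 79.4), and for Socs3 the rise is larger (167 to 194 in the sum, 172 to 245 with equal weights).

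Socs3 rose after DSS within several lymphoid populations. In Tfh-like cells it was at 299 and 192 CPM in the untreated wildtype, 230.0 and 267 in the untreated mutant, 415 and 411 in the DSS-treated wildtype and 448 and 384 in the DSS-treated mutant libraries. All treated libraries were above all untreated ones. The rise in Tfh-like cells was 1.65-fold (log2 fold change 0.73 ± 0.12, SE, edgeR adjusted p = 0.000830), where 8.38% of genes were called, and it stayed called without any single library (adjusted p up to 0.0252). In the mutant alone it was 1.63-fold (edgeR adjusted p = 0.0223, where 3.26% of genes were called), a call lost without any 1 of the 4 mutant libraries (adjusted p from 0.0825 to 0.211). In naive T-like cells Socs3 was at 300.4 and 325 CPM in the untreated wildtype, 373 and 383 in the untreated mutant, 403 and 666 in the DSS-treated wildtype and 561 and 656 in the DSS-treated mutant libraries. The groups again did not overlap, and the DSS-treated libraries spread widely. The rise was 1.54-fold (log2 fold change 0.63 ± 0.16, SE, edgeR adjusted p = 0.0249), where 4.09% of genes were called. It stayed called without DSS-treated wildtype replicate 1 or DSS-treated mutant replicate 1 and was lost without any other library (log2 fold change 0.43 to 0.66, adjusted p from 0.0568 to 0.216), with the highest p without DSS-treated wildtype replicate 2.

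Marker levels moved with Socs3 in the Tfh-like cells. The summed level of 5 naive T markers was 699 to 795 CPM without treatment and 875 to 1138 after DSS. That of 5 T cell markers went from 2588-2867 to 1966-2342, and that of 5 columnar epithelium markers from 7.80-15.4 to 3.44-5.13. The 5 Tfh markers overlapped only narrowly (623.5 to 735 and 474 to 635), with 2 of the 5 lower and 0 higher in all treated libraries. The share of all genes that lay apart in this way was not computed. Naive T-like cells had a 1.39-fold higher Socs3 level than Tfh-like cells, in 7 of 8 libraries (exact p = 0.0234, adjusted 0.0268). The part of these markers in the Socs3 result was not tested. The summed level of 17 dissociation and stress genes overlapped between treated (8578 to 9519.6 CPM) and untreated Tfh-like cells (6377.5 to 12250). In naive T-like cells the naive markers (1723 to 2176 and 1952 to 2451 CPM) and the stress genes (5565 to 11238 and 8006 to 9165) overlapped, while neutrophil markers were at 0 to 8.71 CPM without treatment and 8.88 to 30.8 after DSS. The part of the neutrophil markers was not tested. For free RNA, C1qa was found in 2.04% ± 0.895 of thinned untreated and 5.53% ± 3.55 of thinned treated Tfh-like cells (SD). In naive T-like cells these shares were 2.76% ± 2.06 and 5.82% ± 3.38. The part of free RNA in the Socs3 results of these cells was not tested.

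Treg-like and Th17-like cells showed no called change of Socs3. In Treg-like cells Socs3 was at 138, 101, 118 and 152 CPM in the 4 untreated libraries and 151, 129, 176 and 108 CPM in the 4 treated ones, wildtype before mutant in each. Treated and untreated Treg-like cells overlapped over most of their range (log2 fold change 0.11 ± 0.17, SE, edgeR adjusted p = 0.736, where 9.18% of genes were called). In Th17-like cells, in the same order, Socs3 was at 103, 85.3, 93.2 and 76.6 CPM without treatment and 116, 120.3, 113 and 80.7 CPM after DSS. The Th17-like groups overlapped through DSS-treated mutant replicate 2 (log2 fold change 0.26 ± 0.15, SE, edgeR adjusted p = 0.336, where 3.96% of genes were called), and the value ranged from 0.11 (without DSS-treated mutant replicate 1) to 0.35 when 1 library was left out. In the unnamed cluster led by Ccl5 and Gzma, Socs3 was at 220.4, 190.2, 213 and 219.9 CPM without treatment and 275, 281, 268 and 269.6 CPM after DSS. The groups did not overlap, but the call for this cluster (log2 fold change 0.35 ± 0.11, SE, edgeR adjusted p = 0.0397, where 9.31% of genes were called) was lost without any 1 of the 8 libraries (adjusted p from 0.0548 to 0.194) and with DESeq2 (0.0685).

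The clearest change of the 4 genes was that of Socs3 in antibody-secreting cells. In plasma cell-like cells Socs3 was at 19.8 and 21.5 CPM in the untreated wildtype, 17.5 and 14.3 in the untreated mutant, 51.9 and 42.1 in the DSS-treated wildtype and 48.5 and 49.2 in the DSS-treated mutant libraries. Every treated library lay well above every untreated one. The rise was 2.69-fold (log2 fold change 1.43 ± 0.12, SE, edgeR adjusted p = 0.000439), where 6.21% of genes were called, and stayed called without any single library (adjusted p up to 0.00630). It was called in the mutant alone (1.62 ± 0.17, edgeR adjusted p = 0.00322, where 0.798% of genes were called) and in the wildtype alone (1.24 ± 0.17, edgeR adjusted p = 0.0199, where 0.0998% were). The wildtype call was lost without any 1 of the 4 wildtype libraries (adjusted p from 0.0513 to 0.254), and DESeq2 gave no adjusted p for it. After thinning to 1000 UMIs, a Socs3 UMI was found in 0.976% ± 0.131 of untreated and 4.47% ± 1.12 of treated plasma cell-like cells (SD, n = 4; 11.4% and 26.0% unthinned). Cd3e, as a measure of free RNA, was found in 0.511% ± 0.590 and 1.03% ± 0.442 of the same thinned cells, and C1qa in 1.08% ± 0.612 and 1.67% ± 1.27.

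In B cell-like cells Socs3 was at 59.5 and 61.0 CPM in the untreated wildtype, 58.3 and 78.4 in the untreated mutant, 114 and 117 in the DSS-treated wildtype and 140.1 and 123 in the DSS-treated mutant libraries. The groups did not overlap. The rise in B cell-like cells was 1.79-fold (log2 fold change 0.84 ± 0.15, SE, edgeR adjusted p = 0.000663), where 15.4% of genes were called, and stayed called without any single library (adjusted p up to 0.0151). In the mutant alone it was 1.75-fold (edgeR adjusted p = 0.0110, where 7.06% of genes were called), a call lost without untreated mutant replicate 1 (adjusted p = 0.166) or DSS-treated mutant replicate 1 (0.203). Summed naive T markers, several of which B cells also express, were 358 to 462 CPM in untreated and 549 to 687 in treated B cell-like cells, Treg markers went from 273-322 to 384-496 proliferation markers from 472-688 to 248-348 and columnar epithelium markers from 19.5-39.3 to 14.0-18.7. The T cell markers (351 to 431 and 340.2 to 460.4 CPM) and the stress genes (5920 to 13178 and 8636 to 9163 CPM) overlapped, and 5 of the 17 stress genes were higher in all treated libraries. In plasma cell-like cells, T cell markers (109.8 to 169.7 and 75.5 to 130.5 CPM), macrophage markers (10.4 to 41.6 and 24.1 to 65.9) and stress genes (2894 to 6841 and 2932 to 4093) all overlapped, with 4 stress genes higher and 1 lower in all treated libraries. The part of these genes in the Socs3 results was not tested. The share of all genes higher or lower in all treated libraries was not computed.

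**Figure D4:**
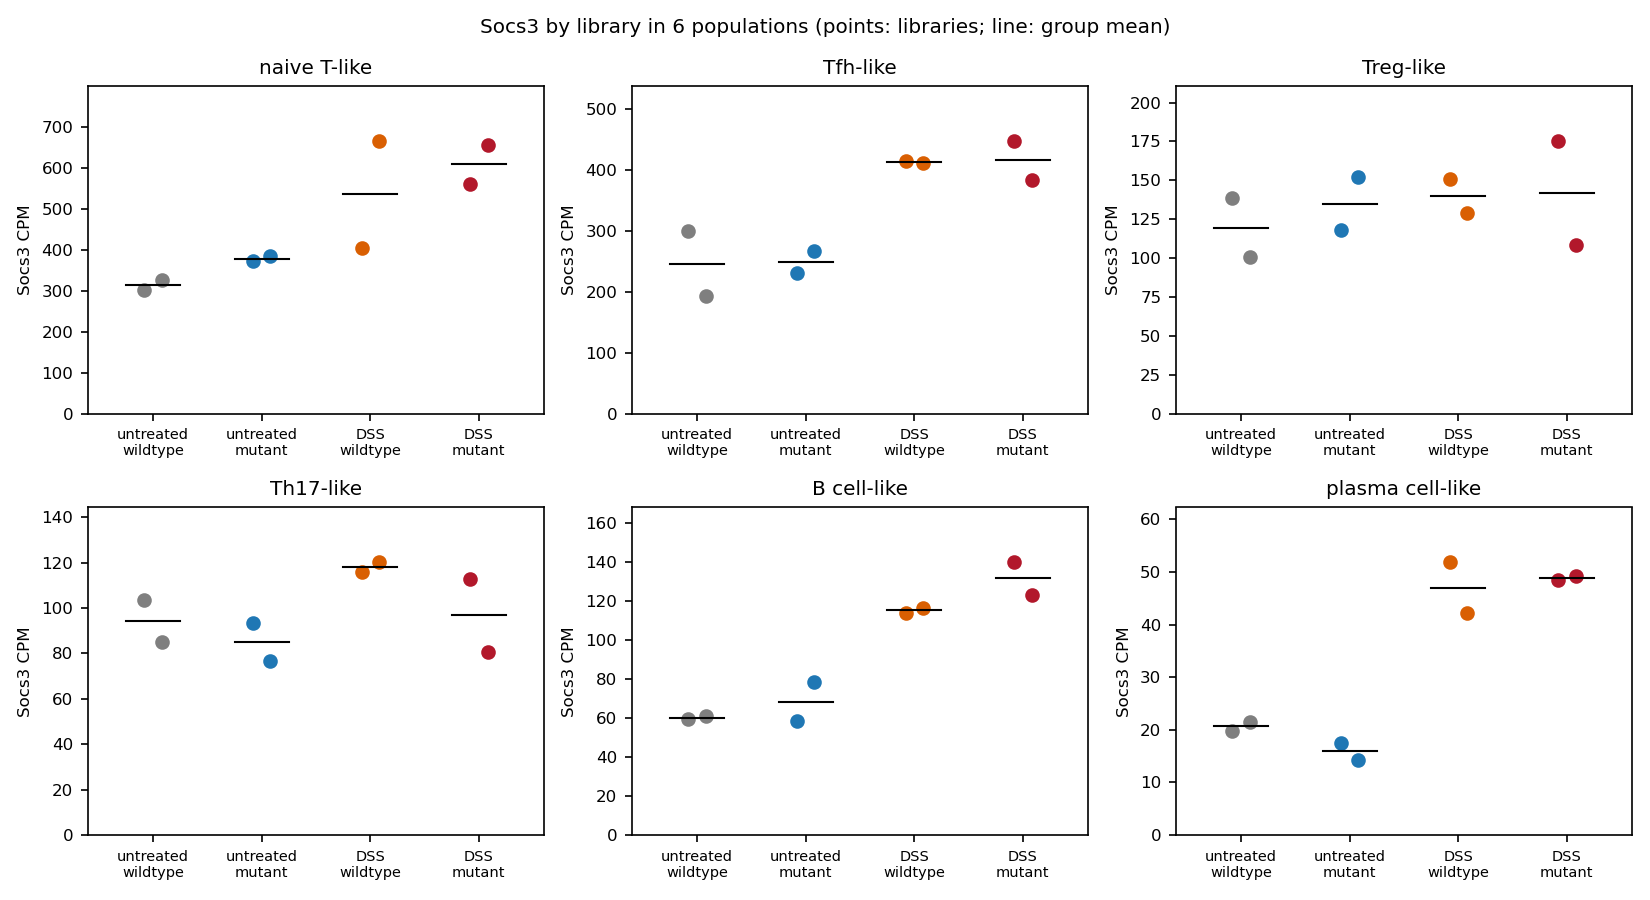
Socs3 level (CPM, vertical axes from 0) by library in 6 populations, with points for libraries and lines for group means. The treated libraries lie above all untreated ones in naive T-like, Tfh-like, B cell-like and plasma cell-like cells, and overlap with them in Treg-like and Th17-like cells.

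In ILC3-like cells (137 to 201 CPM without treatment, 219 to 277 after DSS) and in an unnamed T cell cluster led by Hbb-bs, Ighg2c and Gzmk (104 to 133 and 154 to 205 CPM) Socs3 was higher in every treated library but not called (log2 fold changes 0.42 and 0.52, edgeR adjusted p = 0.139 and 0.0576, where 3.55% and 4.47% of genes were called). Other populations differed in direction. In proliferating-like T cells Socs3 was at 92.4, 102, 88.5 and 58.5 CPM without treatment and 71.3, 77.6, 60.6 and 46.4 CPM after DSS, with overlap through untreated mutant replicate 2. Socs3 was called lower there (log2 fold change -0.48 ± 0.15, SE, edgeR adjusted p = 0.0466, where 11.4% of genes were called), but the call held in only 2 of 8 fits that left out a library and was absent with DESeq2 (adjusted p = 0.198). It was lost without any of untreated wildtype replicates 1 and 2, untreated mutant replicate 1, DSS-treated wildtype replicates 1 and 2 and DSS-treated mutant replicate 2. Over the 8 fits the log2 fold change ran from -0.603 to -0.315, the latter without untreated mutant replicate 1. The stress genes, T cell markers and Treg markers moved without overlap in the same cells, with the values given below for Socs1, and their part was not tested. In macrophage-like, endothelial-like and fibroblast-like cells, where Socs3 was also high, no change was called, with log2 fold changes of 0.24 in macrophage-like, 0.04 in endothelial-like and -0.33 in fibroblast-like cells (edgeR adjusted p from 0.317 to 0.897). In smooth muscle or pericyte-like cells the log2 fold change of Socs3 was 0.94 (edgeR adjusted p = 0.0605, where 2.78% of genes were called). There the groups did not overlap (124 to 275 and 303 to 406 CPM), and DESeq2 called the rise (adjusted p = 0.0213). Over whole libraries Socs3 was at 251 to 319 CPM without treatment and 253 to 299.99 after DSS.

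Cish was called higher after DSS in Tfh-like and B cell-like cells, less firmly than Socs3. In Tfh-like cells Cish was at 81.45 and 85.7 CPM in the untreated wildtype, 56.5 and 69.45 in the untreated mutant, 88.7 and 109 in the DSS-treated wildtype and 104 and 119.6 in the DSS-treated mutant libraries. The groups did not overlap (1.42-fold, log2 fold change 0.51 ± 0.15, SE, edgeR adjusted p = 0.0331). That call depended on the clustering and on single libraries. With clusters from another random start of the same algorithm the adjusted p was 0.0691, and with DESeq2 it was 0.138. It was lost without any of untreated wildtype replicates 1 and 2, untreated mutant replicate 1, DSS-treated wildtype replicate 2 and DSS-treated mutant replicate 2 (adjusted p from 0.0828 to 0.179). In the mutant alone Cish was called 1.75-fold higher in these cells (edgeR adjusted p = 0.0241), a call also lost from the other random start (0.111) and with DESeq2 (0.135), and without untreated mutant replicate 1 (0.2003), untreated mutant replicate 2 (0.0825) or DSS-treated mutant replicate 2 (0.351). In B cell-like cells Cish was at 40.1, 39.7, 27.6 and 39.6 CPM without treatment and 67.3, 67.3, 68.6 and 33.8 CPM after DSS. DSS-treated mutant replicate 2 fell within the untreated range of the B cell-like cells. In thinned B cell-like cells a Cish UMI was found in 2.86% ± 0.733 without treatment and 3.09% ± 0.725 after DSS (SD). Unthinned shares were 5.81% and 8.42%. For free RNA, C1qa was in 2.32% ± 1.35 and 5.80% ± 4.33 of the thinned cells, and Cd3e in 1.53% and 2.41%. The thinned Cish shares lay within the spread of C1qa. The part of free RNA and of the markers given above in the Cish calls was not tested. The log2 fold change of Cish in B cell-like cells was 0.64 ± 0.19 (SE, edgeR adjusted p = 0.0303). It kept its call in 2 of 8 fits that left out a library, those without untreated mutant replicate 2 or DSS-treated mutant replicate 2. Without DSS-treated mutant replicate 1 the log2 fold change was 0.26 (adjusted p = 0.537). The adjusted p was 0.0705 to 0.122 without any of the other 5 libraries, and 0.126 with DESeq2. In ILC3-like and Th17-like cells, where Cish was highest, the log2 fold changes were -0.03 and 0.15 (edgeR adjusted p = 0.931 and 0.5004), with ranges of -0.0644 to -0.00468 and 0.03 to 0.23 when 1 library was left out. In proliferating-like cells the log2 fold change of Cish was -0.40 (edgeR adjusted p = 0.134), and 1 of 8 fits that left out a library called it lower (-0.66, adjusted p = 0.00104).

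Socs1 was lower after DSS in proliferating-like T cells and in stromal cells. In proliferating-like cells Socs1 was at 47.1 and 59.9 CPM in the untreated wildtype, 67.6 and 62.3 in the untreated mutant, 31.4 and 25.2 in the DSS-treated wildtype and 42.8 and 27.0 in the DSS-treated mutant libraries. No treated library reached the untreated range. Socs1 fell 1.94-fold there (log2 fold change -0.95 ± 0.18, SE, edgeR adjusted p = 0.00292) and stayed called without any single library (adjusted p up to 0.0202). In the same proliferating-like cells Treg markers went from 1733-2009 to 2089.9-2630.5 CPM, T cell markers from 2145-2308 to 1795-1943 and the stress genes from 7392-13474 to 5601-7382, with 6 of the 17 stress genes lower in all treated libraries. Their part in the result was not tested. The share of all genes lower in all treated libraries was not computed, so the count of stress genes has no background. In Treg-like, Th17-like, Tfh-like and naive T-like cells no change of Socs1 was called (log2 fold changes -0.39, -0.31, -0.04 and 0.00621, edgeR adjusted p = 0.377, 0.258, 0.871 and 0.992). The value in Treg-like cells moved with single libraries, to -0.25 without untreated wildtype replicate 1 (adjusted p = 0.708) and, for the DSS-treated mutant libraries, to -0.68 without replicate 1 (adjusted p = 0.0523) and -0.03 without replicate 2 (0.948).

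In endothelial-like cells Socs1 was at 55.0, 62.4, 46.6 and 60.6 CPM without treatment and 31.9, 29.96, 35.5 and 31.5 CPM after DSS, with no overlap. The fall was 1.75-fold (log2 fold change -0.81 ± 0.15, SE, edgeR adjusted p = 0.0163, where 4.55% of genes were called). In fibroblast-like cells Socs1 was at 70.6, 75.4, 70.5 and 54.7 CPM without treatment and 41.1, 54.0, 42.1 and 42.1 CPM after DSS. The fibroblast-like groups did not overlap, by a margin under 1 CPM. That fall was 1.43-fold (log2 fold change -0.52 ± 0.14, SE, edgeR adjusted p = 0.0318, where 20.3% of genes were called). For endothelial-like cells the call was lost without replicate 2 of any of the 4 groups (adjusted p from 0.0591 to 0.0723). For fibroblast-like cells it was lost without any library but DSS-treated wildtype replicate 2 and DSS-treated mutant replicate 1 (adjusted p from 0.0519 to 0.121). The stress genes were lower in both populations after DSS, at 31254 to 37191 and 22039 to 29033 CPM in endothelial-like and 31210 to 32285 and 18939 to 22553 CPM in fibroblast-like cells. Other summed marker lists also moved without overlap. In endothelial-like cells proliferation markers went from 70.9-124.8 to 130.9-335 CPM, Treg markers from 142-212 to 213-247 and Tfh markers from 37.5-50.8 to 51.8-63.0, while glial markers (98.7 to 342 CPM after DSS) overlapped. In fibroblast-like cells plasma cell markers went from 726-1298 to 2907-5216 CPM, B cell markers from 62.1-96.1 to 104.4-115.2, neutrophil markers from 34.9-43.1 to 62.4-121.5 and monocyte markers from 1243-1513 to 916-1157. The part of these genes in the Socs1 results was not tested.

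Socs2 was not called in any of the populations in which it was tested. In Treg-like cells, where it was highest, it was at 146, 135, 158 and 157 CPM without treatment and 139.6, 115, 115 and 125 CPM after DSS (log2 fold change -0.29 ± 0.13, SE, edgeR adjusted p = 0.162). The groups overlapped through untreated wildtype replicate 2 and DSS-treated wildtype replicate 1. In Th17-like cells the log2 fold change of Socs2 was -0.27 ± 0.15 (SE, edgeR adjusted p = 0.324), and in plasma cell-like cells, with the smallest adjusted p for Socs2, it was 0.33 ± 0.09 (edgeR adjusted p = 0.0609). Over all 18 populations tested, counting the CD4 T cells as a whole, 70 pairs of a gene and a population had enough counts. Socs2 was too low in naive T-like cells and Socs1 in smooth muscle or pericyte-like cells. Of the 70 pairs, 12 were called for DSS with the genotypes averaged, 7 higher and 5 lower, beside 10.1% of all tests of genes in these populations. In the populations other than the summed CD4 T cells, the log2 fold change of Socs3 was above 0 in 15 of 17 (median 0.37) and that of Socs1 below 0 in 13 of 16 (median -0.20), called or not. The T cell populations among them make up the CD4 T cells, so the sum and its parts share cells. All populations came from the same 8 libraries and are not separate observations. The share of all genes with the same sign in as many populations was not computed.

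**Figure D5:**
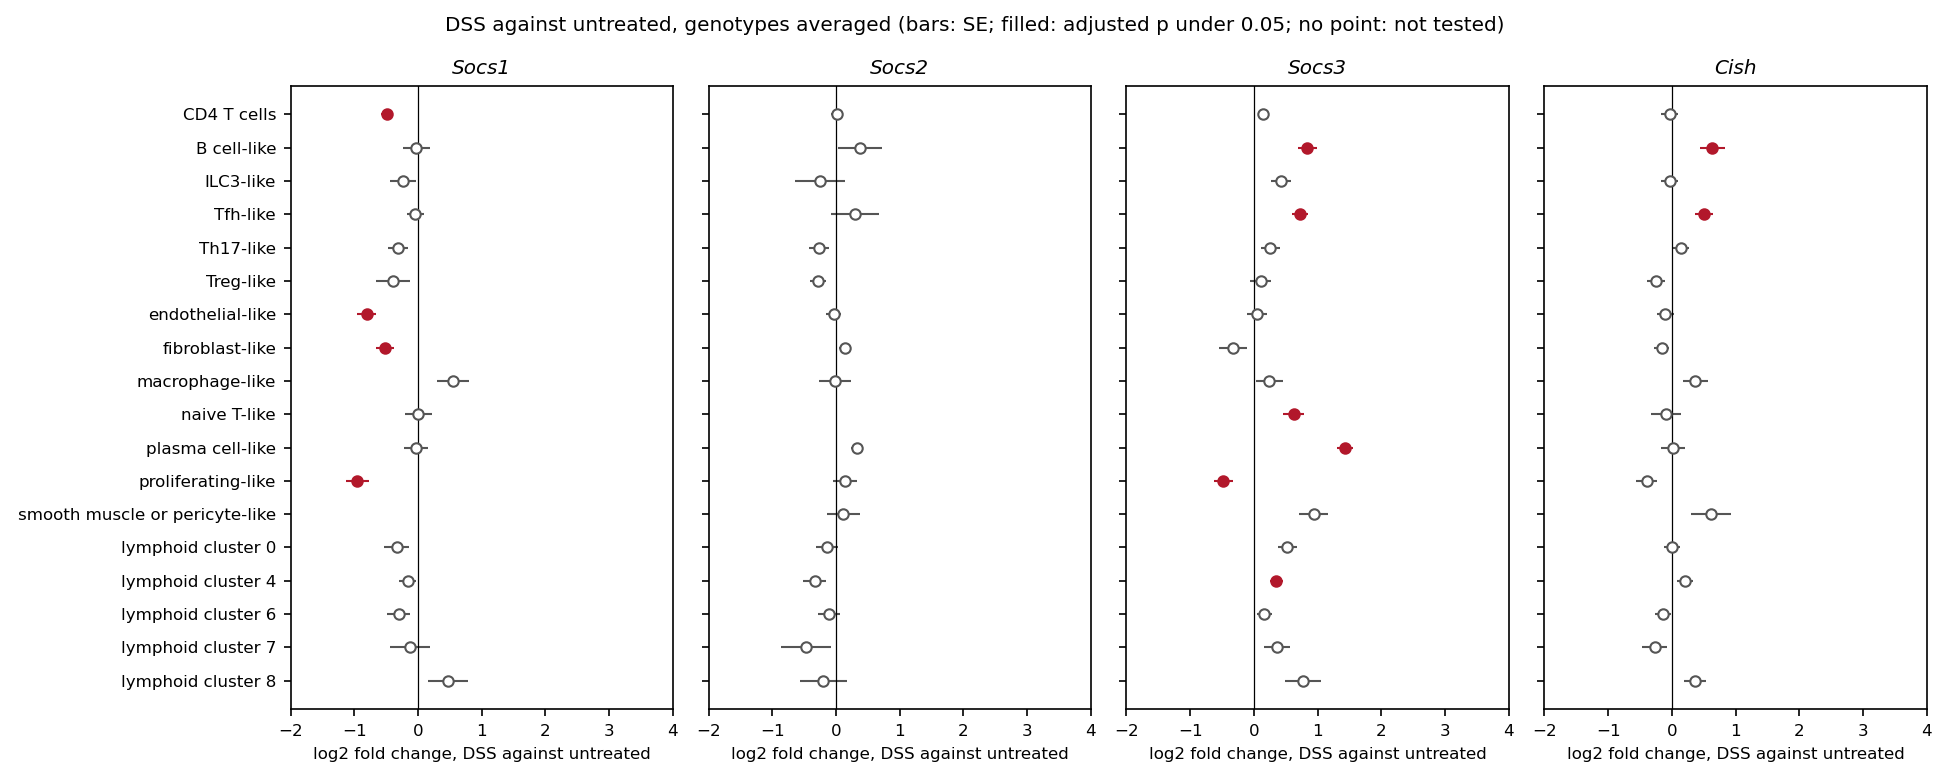
Log2 fold change of each gene, DSS against untreated with the genotypes averaged, in the 18 populations tested, with bars for the SE and filled points for an edgeR adjusted p under 0.05. Called points of Socs3 lie to the right of 0 except in proliferating-like cells, called points of Socs1 lie to the left, and Socs2 has none.

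No effect of genotype on the 4 genes was called. In the summed CD4 T cells edgeR called 0 of 11058 genes between mutant and wildtype without treatment, after DSS, and for the difference in DSS effect. At an unadjusted p under 0.05 there were 582, 181 and 433 genes, and DESeq2 called 15, 0 and 1. Over the 70 pairs of gene and population, edgeR and DESeq2 called none in these 3 comparisons, and 4, 3 and 3 had an unadjusted edgeR p under 0.05. Of all genes tested in a population, 1.94% to 7.95% had such a p without treatment. The shares were 1.60% to 5.25% after DSS and 3.23% to 7.20% for the difference in DSS effect. Among them was Socs1 without treatment. In CD4 T cells it was higher in the mutant by 0.40 ± 0.13 (log2, SE, edgeR unadjusted p = 0.0132, adjusted p = 0.795). In the mast cell protease cluster it was higher by 1.32 ± 0.40 (log2, SE, edgeR unadjusted p = 0.00540, adjusted p = 0.349). That cluster had 31 and 85 cells (62144 and 164960 UMIs of all genes) in the untreated wildtype libraries. It had 300 and 186 cells in the untreated mutant libraries. At a mean of 45.4 CPM, the wildtype side of this difference rested on few Socs1 UMIs. In CD4 T cells after DSS the log2 differences between mutant and wildtype are given with approximate intervals at 95%, which are too narrow for so few libraries. They were -0.20 for Socs1 (-0.45 to 0.06), -0.02 for Socs2 (-0.26 to 0.22), -0.18 for Socs3 (-0.40 to 0.04) and 0.01 for Cish (-0.38 to 0.40). When 1 library was left out, the difference ran from -0.352 to -0.0363 for Socs1 and from -0.267 to -0.0902 for Socs3. In the wildtype alone, 1 of the 70 pairs was called for DSS (Socs3 in plasma cell-like cells), beside 0.801% of all tests, and in the mutant alone 5 were called, beside 3.50%.

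Other parts of the pathway were described from lists of genes chosen with earlier results of these data known. In the summed CD4 T cells, where the median log2 fold change of all genes after DSS was 0.01 and 18.3% of genes were called in either direction, 2 of the 4 other family genes rose, none fell and their median was 0.37. Socs5 rose from 7.28 ± 1.30 to 14.9 ± 2.61 CPM (SD, n = 4; log2 fold change 0.94, edgeR adjusted p = 0.00547) and Socs7 from 18.9 ± 1.10 to 29.6 ± 4.36 CPM (0.57, edgeR adjusted p = 0.0118). Of 6 partners in the SOCS box ligase, 1 fell, Elob, which encodes the elongin B adaptor (log2 fold change -0.45), and the median was 0.00513. Of 19 cytokine receptor chains tested among 26 listed, 4 rose and 1 fell, with a median of 0.06. Il7r, the interleukin-7 receptor alpha chain, rose by 0.66 (216 ± 39.5 to 358 ± 39.0 CPM, edgeR adjusted p = 0.00434), and Il2ra, the high-affinity interleukin-2 receptor chain, by 0.64 (97.9 ± 9.04 to 161 ± 14.8 CPM, edgeR adjusted p = 0.00454). Il6st, which encodes gp130, rose by 0.56 and Il10rb by 0.38, while Il2rg, the common gamma chain, fell by 0.38 (log2 scale throughout). Among the kinases and transcription factors, Tyk2 was the 1 of 4 Janus kinases that rose (0.48), and of 7 STATs Stat5b rose (0.50) and Stat4 fell (-0.37).

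Of 9 cytokine genes tested among 16, 2 rose and 2 fell in the CD4 T cells (median 0.26). Ifng fell from 242 ± 47.8 to 136 ± 12.1 CPM (SD, n = 4; log2 fold change -0.91, edgeR adjusted p = 0.00547) and Il21 from 25.8 ± 10.3 to 14.9 ± 1.71 CPM (-0.79, edgeR adjusted p = 0.00866). Ebi3 and Osm rose from 6.05 and 2.94 CPM by 0.92 and 1.04 on the log2 scale. Target genes of the STATs moved in both directions. Of 8 STAT5 targets 2 rose (Il2ra and Osm) and 2 fell, Gadd45g from 52.0 ± 6.60 to 23.1 ± 4.84 CPM (log2 fold change -1.25, edgeR adjusted p = 0.00343) and Tnfrsf4 (-0.47), with a median of 0.07. Of 8 STAT3 targets Bcl3 rose (0.44) and Il21 and Fos fell (median -0.00665). Of 10 other negative regulators Ptpn6, which encodes the phosphatase SHP-1, fell (-0.50, median -0.11). Beside these, 6 of the 17 stress genes fell and 1 rose (median -0.27), the shares of the Treg-like cells and of the cluster led by Ccl5 and Gzma differed between the groups as given above, and the part of either in the results for Il2ra, Il7r, Ifng and the other pathway genes was not tested.

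In the 4 named populations where Socs3 rose, STAT3-linked genes were tested in the same fits, in which 6.21% of all genes were called in plasma cell-like, 15.4% in B cell-like, 8.38% in Tfh-like and 4.09% in naive T-like cells. In plasma cell-like cells 3 of 6 STAT3 targets tested rose and none fell: Junb from 163 ± 19.9 to 308 ± 33.1 CPM (SD, n = 4; log2 fold change 0.95, edgeR adjusted p = 0.00189), Fos (0.63) and Bcl3 (0.74). Their median was 0.67, against 0.01 over all genes there. Stat3 itself rose in plasma cell-like cells from 45.9 ± 2.94 to 75.0 ± 11.5 CPM (0.74, edgeR adjusted p = 0.00818), and Il6st from 12.4 ± 1.69 to 20.9 ± 3.65 CPM (0.75, edgeR adjusted p = 0.0273). Ptpn1, a phosphatase of JAKs, rose there by 0.69. In B cell-like cells 4 of 6 STAT3 targets tested rose, Batf (0.67), Junb (0.48), Fos (0.51) and Bcl3 (0.49), with a median of 0.48 against 0.01. Il10 rose in B cell-like cells from 8.11 ± 0.857 to 25.2 ± 8.47 CPM (1.60, edgeR adjusted p = 0.000907) and Il10ra, its receptor, from 11.8 ± 2.49 to 29.7 ± 5.198 CPM (1.19, edgeR adjusted p = 0.00425). Junb and Fos are also on the stress list, of which 4 genes rose and 2 fell in plasma cell-like and 9 rose and 2 fell in B cell-like cells. In Tfh-like cells none of 7 STAT3 targets tested was called (median 0.00980). Stat5b (0.56), Stat5a (0.50), Il7r (1.49) and Ifngr1 (0.54) rose there, while Stat4 (-0.42) and Tnfrsf4 (-0.90) fell. Naive T markers were also higher in treated Tfh-like cells, as given above, and their part in these results was not tested. In naive T-like cells Gadd45g (-1.16) and Elob (-0.62) fell and no STAT3 target of 5 tested was called.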

How the data were processed

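For each library the authors deposited a table of UMI counts by gene and barcode, used here as raw counts. Per the submitters' processing notes, Cell Ranger 3.1.0 and Seurat 4.0.1 were used with the build mm10; their settings are not given in the sources used here. Rows followed a deposited list of 31053 symbols, and 30468 of the 30934 row identifiers found in the reference carried the listed symbol, among them all 4 genes studied. All 27420 cells on the authors' list passed the limits on genes and mitochondrial UMIs. Barcodes were clustered with scanpy 1.11.5 and igraph 0.11.9 (Leiden algorithm on an unweighted neighbour graph, run until it converged, 2000 variable genes, 30 principal components, 15 neighbours, resolution 1). The members and the lists of other family genes, ligase partners, kinases, STATs, receptor chains, cytokines and other negative regulators were taken out of the variable genes. So were Il17a, Il17f, Il22, Il10, Ifng, Gzmb and Csf2, and immunoglobulin, T cell receptor segment, haemoglobin, mitochondrial and sex-linked genes. The lists of STAT target genes and stress genes were left in, except for genes also among those taken out. A cluster took a name from marker lists when its score reached 1 and led the next by 0.3. In 5 lymphoid clusters no name qualified. T subsets hold only cells on the authors' list, and other populations all barcodes. The clustering was changed after earlier results were known, because the first clusters differed between numerical settings: 4 graphs or settings of the algorithm were tried, and the last was kept because it gave identical clusters in repeated runs and because of the clusters it allowed to be named, before its tests were seen. Calls of Cish and of the mutant-only Socs3 effect in Tfh-like cells, and of Socs3 in proliferating-like cells, differed between the clusterings whose tests were run. Scrublet marked 0 doublets at its own threshold, so doublets were not removed. The 8% of barcodes with the highest scores (7327) were left out only as an alternative.

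Summed counts were tested with edgeR 4.0.16 (glmQLFit, TMM scaling, filterByExpr, all 8 libraries in a model of 4 group means), with Benjamini-Hochberg adjustment. DESeq2 1.42.0 was an alternative. The procedure was tested on simulated data. Populations needed 20 cells in each library. Intervals at 95% come from the fitted value and its SE by a normal approximation. They are narrower than intervals from the quasi-likelihood test would be. Named list genes are those called in a comparison, up to 30, and the genes most like a member are the 5 with the highest r. The members, the lists and the marker genes were chosen with earlier results of these data known. Other alternatives were DESeq2 size factors, no filter on low counts, fits of only the libraries compared, each library left out, all T cell barcodes on or off the authors' list, resolution 0.5, a replicate block, a pseudocount of 10 and no thinning. Equal weighting of T subsets, the pairs of T subsets and clusters from another random start were added after the data had been seen. With 2 libraries a group, intervals and SEs rest on few libraries. The target genes of 1 transcription factor are not reported here.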

Additional observations from a re-analysis of the deposited data

How the results depend on the processing

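The share of genes called in CD4 T cells for DSS with the genotypes averaged was 18.3%; DESeq2 called 12.1%, and leaving out 1 library gave 1.76% (without untreated wildtype replicate 2) to 17.5%, and at most 10.2% without any of the other 3 untreated libraries, DSS-treated wildtype replicate 2 or DSS-treated mutant replicate 2. For DSS in the wildtype (0.317%) DESeq2 gave 2.40%, no filter 4.38%, only the libraries compared 0.587%, all T cell barcodes 0.102%, removal of the highest Scrublet scores 0.212% and leaving out 1 library 0% to 1.05%. For DSS in the mutant (5.04%) no filter gave 8.46%, only the libraries compared 1.03%, all T cell barcodes 8.01% and leaving out 1 library 0% to 5.196%, over 1.5 times lower without either untreated wildtype or either untreated mutant library or DSS-treated mutant replicate 2. For mutant against wildtype without treatment (0%) DESeq2 gave 0.661%, no filter 0.783%, a replicate block 0.163% and leaving out 1 library 0% to 0.0694%; after DSS (0%) no filter gave 0.183% and leaving out 1 library 0% to 0.0262%; for the interaction (0%) DESeq2 gave 0.00904%, no filter 0.376% and leaving out 1 library 0%. The replicate block paired neighbouring animal numbers from the titles, whose deviations correlated at r = 0.13 and 0.07, so the numbers were not taken to pair the libraries. Pairs of member and population called for DSS, without the summed CD4 T cells, numbered 11, and 4 to 10 when 1 library was left out. Shares of CD4 T cells with a UMI without thinning were 18.1%, 13.8%, 34.8% and 44.7% for Socs1, Socs2, Socs3 and Cish.

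Of 18 called member results, leaving out 1 library each kept the call in 86 of 144 values and lost it in 58, with the direction kept in all of them; other alternatives kept 73 of 83 and lost 10. Clusters from another random start lost the calls of Cish in Tfh-like cells (log2 fold change 0.46 with the genotypes averaged and 0.63 in the mutant) and no other call that could be refitted. Changes of sign occurred in results that were not called, in CD4 T cells and in other populations. For Socs2 they were -0.00555 without the highest Scrublet scores and -0.126 with equal weights (DSS, genotypes averaged). For Socs3 (DSS in the mutant) they were 0.0156 without a filter and 0.0401 with all T cell barcodes. For Cish, all T cell barcodes gave 0.0308 (DSS, genotypes averaged), 0.00606 (wildtype), 0.0555 (mutant), -0.0575 (genotype, untreated), -0.00811 (genotype, DSS) and 0.0494 (interaction); equal weights gave 0.0546 (DSS, genotypes averaged), no filter -0.00194 (genotype, untreated) and 0.0144 (interaction), resolution 0.5 gave 0.000602 (interaction) and the replicate block -0.0279 (genotype, DSS). Leaving out 1 library gave ranges across 0 for Cish of -0.227 to 0.137 (DSS, genotypes averaged), -0.128 to 0.0649 (wildtype), -0.430 to 0.297 (mutant), -0.0657 to 0.0845 (genotype, untreated), -0.391 to 0.335 (genotype, DSS) and -0.406 to 0.321 (interaction). The ranges were -0.0550 to 0.0915, -0.247 to 0.0463 and -0.102 to 0.0629 for Socs2 (DSS averaged, DSS in the wildtype and genotype after DSS), -0.0285 to 0.0341 for Socs3 (DSS in the mutant), and -0.0510 to 0.293 for Socs3 in Treg-like cells (DSS averaged). Other printed values that crossed 0 when 1 library was left out (DSS averaged) were Socs1 in Tfh-like (-0.186 to 0.183) and naive T-like cells (-0.230 to 0.222) and Socs3 in endothelial-like cells (-0.132 to 0.177). Coarser clusters gave no Treg-like population. The causes were not tested.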
